A study of Homo sapiens with 3 samples.

Results

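NAV2 (neuron navigator 2) occupies 771 kb on the plus strand of chromosome 11, from 19372271 to 20143144 on hg19. The data described here are the FOXA2 peaks with their midpoint in this gene or in about 100 kb on each side, between positions 19272000 and 20243000. Replicate 1 had 48 such peaks of the 63949 in its list, and replicate 2 had 29 of 26907. A replicate 1 peak that overlapped a replicate 2 peak by at least 1 bp is called a shared site, and 27 of the 24345 shared sites of the genome lay in the window. The gene was chosen because its shared sites lie unusually close together, so their number, spacing and score are described here without a test. The study mapped the transcription factor FOXA2 by chromatin immunoprecipitation and sequencing in untreated Caco2 cells, an established colorectal adenocarcinoma line that serves as a stand-in for intestinal epithelial cells. Both immunoprecipitations used the same Santa-Cruz FOXA2 antibody on cells grown in low-glucose DMEM with serum, and both were called against 1 input library without antibody. Whether the replicates were separate cultures is not stated, so their spread may be technical, and a single tumour line cannot stand for normal epithelium. A peak list holds no expression, so neither the transcript level of NAV2 nor markers of the cell line were measured.

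FOXA2 is a forkhead protein of endoderm-derived tissues that binds DNA in closed chromatin and can open it for other factors. Its sites commonly lie in introns and between genes, away from transcription starts, and regulatory regions often hold several sites close together. NAV2 encodes a large protein of the cytoskeleton related to the worm guidance protein UNC-53. It responds to retinoic acid, is best known for its part in the outgrowth of axons, and is transcribed from several alternative starts. In the RefSeq gene order (GRCh38.p14), E2F8, a cell-cycle transcription factor, is the next protein-coding gene before NAV2, and DBX1, a homeobox factor of the developing nervous system, is the next after it. The same annotation places 10 other genes inside NAV2, of which 6 are long non-coding RNAs, among them NAV2-AS2 to NAV2-AS5 and LEISA1, and 2 are the microRNA genes MIR4486 and MIR4694.

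The starts of NAV2 are shown because they are where transcripts begin, and because no FOXA2 peak was found at the annotated start. RefSeq gives 3 starts for the gene. The 250 bases before each are printed on the plus strand, from the GRCh38.p14 assembly, with every CG pair in capitals. Their positions are on that build and were not matched to the hg19 positions of the peaks, so their distance from any FOXA2 site is not given. Whether the third, far along the gene, falls within the dense run of sites described below was not determined. The run is therefore not said to lie away from every start.
NAV2 start 1, chr11:19344986-19345235: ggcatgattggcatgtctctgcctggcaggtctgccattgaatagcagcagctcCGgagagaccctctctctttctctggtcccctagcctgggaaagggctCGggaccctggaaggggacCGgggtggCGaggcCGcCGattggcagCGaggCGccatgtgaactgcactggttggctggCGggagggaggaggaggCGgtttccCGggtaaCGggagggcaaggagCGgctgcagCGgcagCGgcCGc
NAV2 start 2, chr11:19712587-19712836: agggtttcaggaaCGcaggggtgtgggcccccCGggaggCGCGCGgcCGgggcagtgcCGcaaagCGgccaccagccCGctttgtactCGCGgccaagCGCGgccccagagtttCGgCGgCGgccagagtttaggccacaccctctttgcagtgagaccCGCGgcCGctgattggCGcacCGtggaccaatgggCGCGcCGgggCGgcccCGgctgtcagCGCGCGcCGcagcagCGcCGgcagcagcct
NAV2 start 3, chr11:20022306-20022555: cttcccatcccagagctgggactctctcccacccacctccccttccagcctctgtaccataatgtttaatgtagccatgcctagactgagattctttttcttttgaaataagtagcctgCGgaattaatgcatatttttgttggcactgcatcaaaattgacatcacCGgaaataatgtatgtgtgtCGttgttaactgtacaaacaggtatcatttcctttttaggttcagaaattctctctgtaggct
The first and the second sequence were rich in G and C, with 66.8% and 74% of these bases and 16 and 32 CG pairs. The third, farthest along the gene, had 41.6% and 3 CG pairs. Over the 35116 starts of the same table the median was 58% with 11 CG pairs. Forkhead heptamers were searched in these 250 bases on both strands. The heptamer TGTTTAC was present before 2.98% of all starts and the heptamer TATTTAC before 2.39%. The heptamer TGTTTGC was present before 3.23% and the heptamer TATTTGC before 2.63%, and 10.6% held at least 1 of them. None of the NAV2 sequences held any. This says only that these letters are not in these windows. The bases under the FOXA2 peaks themselves were not read here, since they need the hg19 genome, and for the same reason the sites are not assigned to exons or introns.

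FOXA2 sites were unevenly spread along NAV2. The gene held 24 shared sites, or 3.11 per 100 kb, against 0.859 per 100 kb over the occupied part of the genome and 1.22 on chromosome 11. Of these 24, 10 lay in a run of 36.6 kb, from 20016870 to 20053492, in which neighbouring midpoints are no more than 10 kb apart. Runs of 5 or more held 2.25% of all shared sites. The run covers 4.75% of the gene's length and held 41.7% of its shared sites. It lies toward the 3' end but not at it: it starts 645 kb after the annotated start, spans 83.6% to 88.4% of the gene's length and ends 89.7 kb before the gene does.

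**Figure D1:**
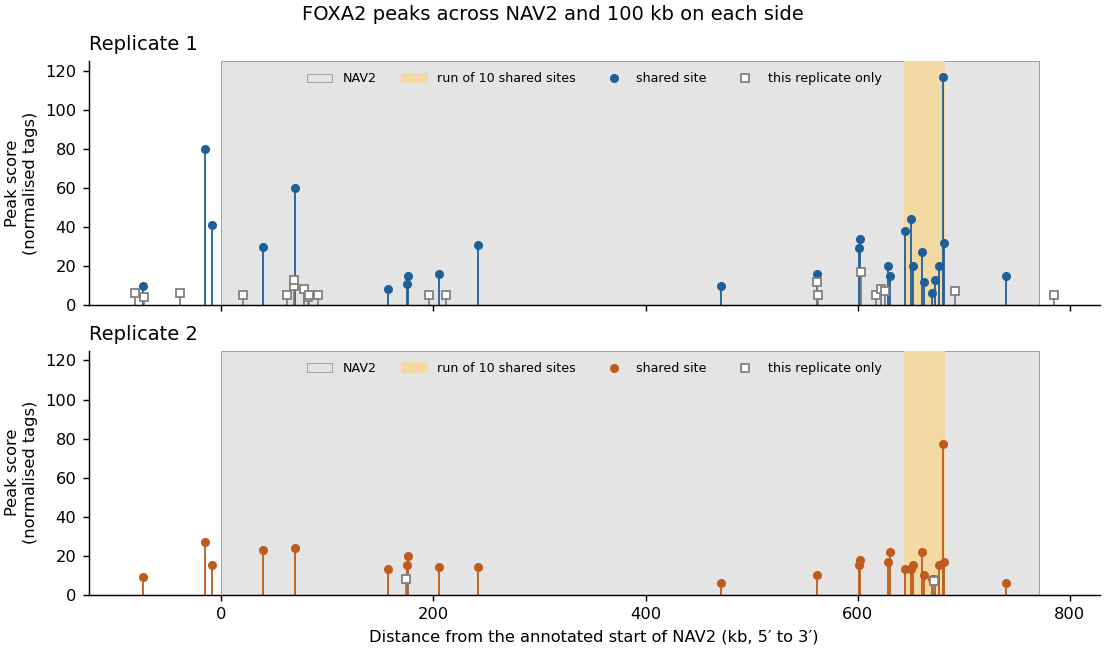
Score of each FOXA2 peak (y axis, normalised tags) against its distance from the annotated NAV2 start (x axis, kb), with replicate 1 above and replicate 2 below. Filled circles are shared sites and open squares are peaks of that replicate alone; the grey band is the gene and the tan band the run, which holds the highest peak of the window in both replicates (117 and 77).

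The score of a peak is the authors' own value, read as its tag count scaled to 10000000 tags per library. A unit stands for about 2.62 tags in replicate 1, which had 26183147 tags in all, and for about 1.58 in replicate 2, which had 15756702. The median peak scored 8 in the first list and 11 in the second. Each list has peaks of a single width, 123 bp for replicate 1 and 151 bp for replicate 2, so scores are compared between sites within a replicate and only approximately between replicates.

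The run was dominated by its ninth site in 5' to 3' order, at 20052723 to 20052845. This site scored 117 in replicate 1 and 77 in replicate 2, or 97 ± 28.3 (mean ± SD, n = 2). It ranked 421 among all 24345 shared sites by mean score, and it was the highest peak of the whole window in both replicates. On its own it made up 35.6% of the run's summed score in replicate 1 and 38.9% in replicate 2. Its neighbour at 20053370 to 20053492, the last of the run, lay 647 bp farther on and scored 32 and 17 (24.5 ± 10.6, n = 2). These form the closest pair of shared sites in the window, near the 3' border of the run.

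At the 5' border of the run, the first site, at 20016870 to 20016992, scored 38 in replicate 1 and 13 in replicate 2 (25.5 ± 17.7, n = 2). The second, at 20022192 to 20022314, scored 44 and 13 (28.5 ± 21.9, n = 2). Both were thus well above the median peak in replicate 1 but close to it in replicate 2, and their rank in the run depends on the replicate. The fourth site, at 20033010 to 20033132, scored 27 and 22 (24.5 ± 3.54, n = 2) and was the second highest of the run in replicate 2.

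The other 5 sites of the run were moderate or weak. Those at 20024465 to 20024587 and at 20049277 to 20049399 each scored 20 in replicate 1 and 15 in replicate 2. The site at 20034987 to 20035109 scored 12 and 10, and the site at 20045174 to 20045296 scored 13 and 8. The weakest, at 20041890 to 20042012, scored 6 and 8 and was the only site of the run that scored higher in replicate 2. The run therefore joined a strong site near its 3' border with sites on both sides of the median of all shared sites, a mean score of 14.5 (interquartile range 9.5 to 24.5). Of the 10, 7 lay above that median.

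**Figure D2:**
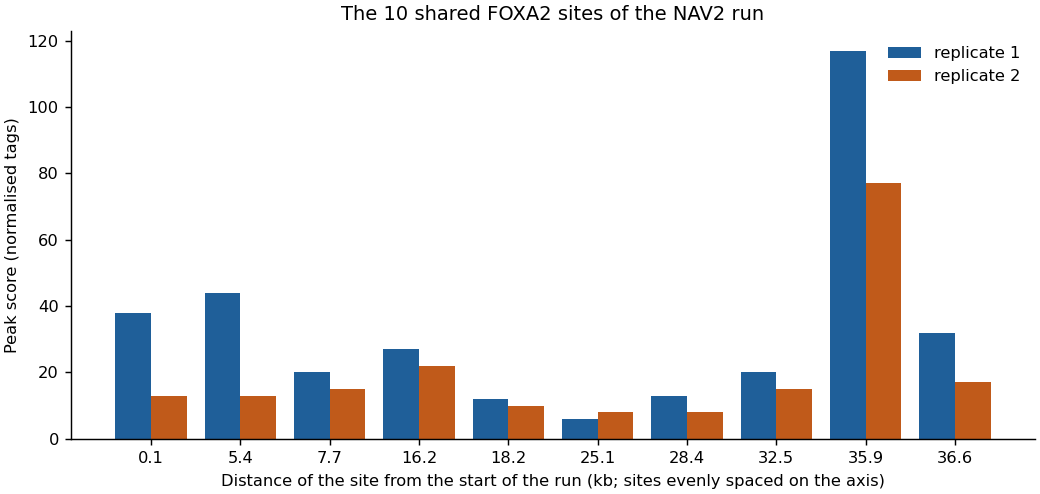
Score (y axis, normalised tags) of the 10 shared sites of the run in 5' to 3' order, labelled by distance from the start of the run (kb) and spaced evenly. Bars are the scores of replicate 1 and replicate 2; the ninth site stands above all others in both, and the sixth is the lowest in replicate 1 and shares the lowest score, 8, with the seventh in replicate 2.

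Between neighbouring sites of the run the distance was 3.45 kb at the median and ranged from 0.647 to 8.54 kb, against a median of 38.8 kb between neighbouring shared sites of the genome. The nearest shared sites just outside the 10 kb limit lay 13.9 kb before the run and 58.4 kb after it. The site before it, at 20002961 to 20003083, scored 15 and 22, and the site after it, at 20111783 to 20111905, scored 15 and 6. The run thus ended abruptly on its 3' side, while on its 5' side other sites followed at moderate distance.

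Both replicates placed almost the same peaks in the run. Replicate 1 had 10 peaks there and all were shared. Replicate 2 had 11, of which 10 were shared, and the additional peak, at 20043770 to 20043920, scored 7 and lay 1.39 kb from the nearest shared site. Over the whole lists, 38.1% of replicate 1 peaks and 90.5% of replicate 2 peaks were shared. Because the run was defined from shared sites, its high share follows in part from that choice and nothing is read from it. The centres called by the replicates differed by a median of 24 bp and by at most 97 bp over these 10 sites, against a median of 15 bp over all shared sites. The offset of 97 bp belonged to the site at 20034987, whose peaks overlapped only at their edges.

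Away from the run, NAV2 held 14 shared sites over 734 kb, or 1.91 per 100 kb, against 27.3 per 100 kb within it. The density in the run was 14.3 times that of the rest of the gene. The run was cut out by the closeness of its sites, so a high multiple follows from that choice and nothing is read from it. This multiple depends on the list: with all replicate 2 peaks taken as sites it was 14.7, and with all replicate 1 peaks 6.47, since that list adds 17 unshared peaks outside the run (4.22 per 100 kb) and none inside. The rest of the gene was still 2.22 times as dense in shared sites as the genome and 1.56 times as dense as chromosome 11.

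The strength of single sites did not separate the run from the rest of the gene in the same way in both replicates. In replicate 1 the median score of shared sites was 23.5 in the run and 16 outside it. In replicate 2 it was 14 in the run and 15 outside it. The run held 51.5% of the summed score of the gene's shared sites in replicate 1 and 47.7% in replicate 2. Both were above its 41.7% of the sites. Its ninth site alone made up 35.6% and 38.9% of the run's sum. The run's higher number of sites per length follows from how it was cut out. It also held the strongest site of the gene. The typical score of a site was higher in the run than outside it in replicate 1 and nearly the same in replicate 2 (14 and 15).

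Among the 14 sites outside the run, the highest mean score was at 19441449 to 19441571, 69.2 kb after the annotated start. It scored 60 in replicate 1 and 24 in replicate 2 (42 ± 25.5, n = 2), above every other site of the gene except the ninth of the run. The next, at 19411521 to 19411643, lay 39.3 kb after the start and scored 30 and 23 (26.5 ± 4.95, n = 2). Both lay in the 5' part of the gene, and the second of them is its first shared site.

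Close to 600 kb after the start lay a pair of sites 702 bp apart. The site at 19973965 to 19974087 scored 34 and 18 (26 ± 11.3, n = 2), and that at 19973263 to 19973385 scored 29 and 15 (22 ± 9.9, n = 2). Another pair, 709 bp apart, lay at 19547310 (11 and 15) and 19548019 (15 and 20), 175 and 176 kb after the start. With the pair in the run, 6 of the 24 shared sites of the gene had another within 1 kb, where 6.51% of all shared sites did. Within 10 kb, 18 of the 27 shared sites of the window had another, where 39% of all shared sites did. As spacing is what led to the choice of this gene, nothing is read from either share. The fourth by mean score outside the run, at 19614445 to 19614567, stood alone 242 kb after the start and scored 31 and 14 (22.5 ± 12, n = 2).

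In steps of 100 kb from the annotated start, the gene held 2, 3, 2, 0, 1, 1 and 14 shared sites, and 1 in the last, shorter step. The step from 600 to 700 kb therefore held 14 of the 24, which are the 10 sites of the run and 4 sites before it. The middle of the gene was nearly empty. From 242 to 471 kb after the start neither replicate had a peak, a stretch of 229 kb. The only shared site between 242 and 562 kb, at 19843152 to 19843274, was weak in both replicates, with scores of 10 and 6.

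No FOXA2 peak was found near the annotated start, here the gene's first position on hg19, 19372271. The RefSeq starts printed above were not placed on hg19, so this does not cover them. The peak nearest to the annotated start in either replicate was the shared site at 19363783 to 19363905, 8.43 kb upstream. It scored 41 and 15 (28 ± 18.4, n = 2). A stronger one, at 19356631 to 19356753, lay 15.6 kb upstream and scored 80 and 27 (53.5 ± 37.5, n = 2), the second highest mean score of the window. Downstream, the first peak of replicate 1, with a score of 5, lay 20.1 kb into the gene, and the first shared site 39.3 kb into it. The 5' flank also held a weak shared site at 19298555 to 19298677, 73.7 kb upstream, with scores of 10 and 9.

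The 3' flank, toward DBX1, held no shared site. Its only peak, at 20156907 to 20157029, scored 5 and was found in replicate 1 alone. Just outside the window, the nearest peaks to its 5' edge lay 6.18 kb away in replicate 1 and 6.19 kb in replicate 2, overlapped each other and scored 15 in both. The nearest peaks inside that edge scored 6 in replicate 1 and 9 in replicate 2. Beyond the 3' edge the nearest peaks lay 134 kb away and scored 8 and 6. The sites thus thin out after the run, with a single shared site in the last 89.7 kb of the gene and none in the flank.

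Replicate 1 had 21 peaks in the window that replicate 2 lacked, and they were mostly weak ones. Of its 41 peaks in the gene, 24 were shared, or 58.5% (95% Wilson interval 43.4% to 72.2%, counting error only), against 38.1% of its whole list, with the run included. Outside the run 14 of 31 were shared, or 45.2% (29.2% to 62.2%). The gene was chosen and the run cut out by their shared sites, so nothing is read from either share. Within the window all 15 replicate 1 peaks that scored 20 or more were shared, where 94.6% of such peaks in the genome were. Of those that scored 10 to 19, 10 of 14 were shared (59.2% in the genome), and of those under 10, 2 of 19 (14%).

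The 4 unshared replicate 1 peaks that scored 10 or more all lay close to a shared site. The highest, at 19975551 to 19975673, scored 17 and lay 1.59 kb after the pair near 600 kb. Those at 19440723 (score 10) and 19441135 (score 13) lay 0.726 and 0.314 kb before the strong site at 19441449. That at 19933847 (score 12) lay 0.425 kb before the shared site at 19934272. In replicate 2, peaks closer together than 300 bp could not be called apart. The nearest replicate 2 peaks to these 4 lay 1.65, 0.726, 0.314 and 0.414 kb away, in the order given, all beyond that distance. In both replicates a peak had to exceed its surrounding 10000 bp 4-fold. The part of these limits in the missing partners was not tested. Apart from the peak inside the run, replicate 2 had 1 unshared peak in the window, at 19546409 to 19546559, which scored 8 and lay 0.887 kb before the shared site at 19547310.

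The replicates differed in how strongly they marked the NAV2 sites. Of the 27 shared sites in the window, 22 scored higher in replicate 1 and 5 in replicate 2, where 29.7% of all shared sites scored higher in replicate 2. The median log2 ratio of replicate 1 to replicate 2 was 0.51 over the 24 sites of the gene and 0.26 over all shared sites. The counting error of a single NAV2 site was 0.35 on the same scale at the median. That error does not measure the spread of a median over 24 sites, and the difference of the medians was not tested. Of the 27 sites, 6 departed more than 2-fold from the median ratio, where 9.77% of all shared sites did. All of these scored relatively higher in replicate 1, a direction taken by 4.92% of all shared sites.

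Those sites were spread over the window and not gathered in the run. They were the sites 15.6 and 8.43 kb upstream of the start, with log2 ratios of 1.57 (counting error 0.24) and 1.45 (0.33), and the strong site at 19441449, with 1.32 (0.26). In the run they were the first and the second site, with 1.55 (0.35) and 1.76 (0.35). The last was the site at 20111783, with 1.32, where the counting error of 0.52 is larger because only about 9.45 tags stand behind its replicate 2 score. The ninth site of the run, with the most tags, had a log2 ratio of 0.60 (0.15). The SD of the ratio over all shared sites was 0.62, and replicate 1 also had the higher efficiency of immunoprecipitation over the genome, 8.72% against 5.16%. The part of depth and efficiency in these 6 ratios was not tested. The 5 sites that scored higher in replicate 2 were the weakest site of the run, the site at 20002961, both sites of the pair near 175 kb and the site at 19529858, which scored 8 and 13.

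**Figure D3:**
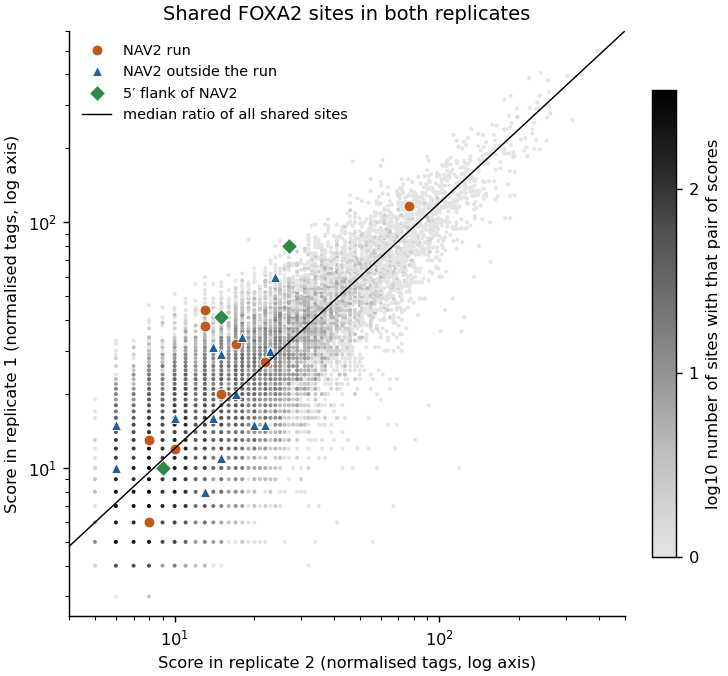
Score in replicate 1 (y axis) against score in replicate 2 (x axis) of every shared site, in normalised tags on log axes; grey points are all 24345 sites, darker where more sites have the same pair of scores. Coloured symbols are the sites of the run, of the rest of NAV2 and of its 5' flank, of which 22 scored higher in replicate 1; the line is the median ratio of all sites, 1.20, and symbols with the same scores coincide.

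With neighbours at most 10 kb apart, the NAV2 run held more shared sites than any other run of the genome. Of the shared sites, 14856 had no neighbour within that distance, and 3982 runs held 2 or more, of which 99 held 5 or more. Only 4 runs held 8 or more. The second held 9 sites over 42.7 kb on chromosome 1, from 234736451 to 234779180. The others held 8 each, over 31.8 kb on chromosome 11, from 113948557 to 113980392 inside ZBTB16, a gene for a zinc finger transcription factor, and over 28.8 kb on chromosome 2, from 216529731 to 216558517. That length was what brought NAV2 to notice, so its place in this order is a description.

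**Figure D4:**
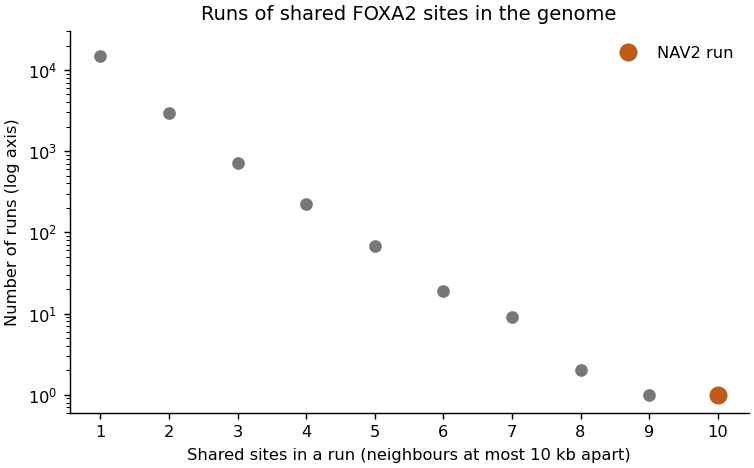
Number of runs in the genome (y axis, log scale) by the number of shared sites they hold (x axis), with neighbours at most 10 kb apart. The count falls from 14856 single sites to 1 run of 10, which is the one in NAV2.

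The order of these runs depended on how sites were taken. With neighbours at most 5 kb apart the NAV2 run broke up and its longest piece held 5 sites over 11.6 kb. At this gap 2 other runs held more and 1 held as many. With 20 kb the NAV2 run held 12 sites over 53.1 kb, while 2 other runs held more, up to 24, and 3 held as many. With a score of at least 10 in both replicates the sites at 20041890 and 20045174 dropped out. The NAV2 run then fell into pieces of 5 and 3 sites, while 7 other runs held more than 5 and 14 held as many. From the replicate 2 list alone the NAV2 run held 11 sites and 1 run was longer. From the replicate 1 list alone it held 10, while 26 other runs held more and 33 held as many. With midpoints within 500 bp counted as shared, it held 10 sites and another run held as many. Among these settings, it stayed first with a reciprocal overlap of 50%, where it held 9 sites, and with midpoints within 100 bp, where it held 10.

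Set beside the other long runs, the NAV2 run was neither the densest nor the strongest site by site. It held 2.73 sites per 10 kb, compared with 2.78 in the chromosome 2 run, 2.51 in ZBTB16 and 2.11 on chromosome 1. Its median mean score was 21, below 35 in ZBTB16 and 23 on chromosome 1 and above 14 on chromosome 2. Its highest site, with a mean score of 97, exceeded the highest sites of the others, which had 89 in ZBTB16, 70 on chromosome 1 and 28.5 on chromosome 2. The SD between replicates of the NAV2 site, 28.3, is larger than its distance from the ZBTB16 site. In summed score the ZBTB16 run stood first in both replicates, with 350 and 286, while the NAV2 run had 329 and 198 and the chromosome 1 run 271 and 230. Its median log2 ratio of 0.51 was the highest of the 4, which had 0.32 in ZBTB16, 0.11 on chromosome 2 and 0 on chromosome 1.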

How the data were processed

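FOXA2 ChIP-seq peaks of 2 replicate immunoprecipitations were used, and the input entered only through the authors' calls. Reads were aligned to hg19, and Bowtie 1.0.0 and HOMER 1.2 are named, per the submitters' processing notes. Peaks were called in each replicate separately with HOMER findPeaks in factor style, per the file headers. The calls asked for 4 times the input and 4 times the local level within 10000 bp, with a Poisson p of 0.0001 for both and a false discovery rate of 0.001. The deposited score is a whole number. Its sum over each list, turned back into tags, was 0.45% and 0.20% above the tags in peaks of the file headers, so it was read as tags scaled by the authors to 10000000 per library and rounded.

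From these files, overlap of at least 1 bp, runs, densities, ratios and Wilson intervals were computed with Python 3.11.15, numpy 2.4.6, pandas 2.3.3 and scipy 1.17.1, and the overlap and run procedures were tested on simulated data. Coordinates are 1-based. Densities of the genome are per 1 Mb window with a peak of either replicate. The counting error of a ratio is the Poisson error of the approximate tags. The gene, the run and the lists of sites were chosen with earlier results of these data known, so no test was made. Sites named are all shared sites of the run, the 5 highest outside it, those nearest the start and the highest of each flank, single-replicate peaks in the run and the other runs of 8 or more. Other sites were named after their values were seen. The alternatives were other overlap limits, a score of at least 10, run gaps of 5 and 20 kb and each list alone; how the run ranks in the genome under them was added after seeing the data.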

Additional observations from a re-analysis of the deposited data

How the results depend on the processing

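Of 46 alternatives, 36 stayed within the spread allowed for each result (1.5 times for a count, the SD between replicates for a density or a score, the Wilson interval for a share, the counting error for a ratio) and 10 moved. With a score of at least 10 in both replicates the longest run held 5 sites instead of 10. With that limit on replicate 1 alone, 84.6% of the gene's replicate 1 peaks overlapped a replicate 2 peak of any score. Without it 58.5% did, as weak peaks are rarely shared. With a gap of at most 5 kb the longest run also held 5 sites, at 43.1 per 100 kb. The density in the run, 27.3 per 100 kb, was 24.6 with a reciprocal overlap of 50% and 22.6 with a gap of 20 kb. Taking either list alone, the window held 29 to 48 sites and the run 10 to 11. The density was then 27.3 to 29.9 per 100 kb in the run and 2.04 to 4.22 in the rest of the gene, and the median score in the run was 13 to 23.5. No paired analysis was possible because the study has a single group of immunoprecipitations and no result comes from a test. With 2 libraries the spread of a site rests on 2 values, and the weakest replicate 2 scores stand for about 9.45 tags, so presence in a single list is not evidence of a difference. The shared percentage and the ratio need both lists, so neither could be left out there.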
